A study of Saccharomyces cerevisiae with 8 samples.

Results

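The gap between 2 fermentative strains of *Saccharomyces cerevisiae*, CECT10094 and Temohaya-MI26, was measured 1 h after transfer to fresh GPY medium without ethanol. It was taken from 2 of the 8 samples of the series, CECT10094 and Temohaya-MI26 at 1 h and 0% (v/v) ethanol, chosen by their labels and not by any measured value. For each open reading frame (ORF) the gap is the log2 ratio of CECT10094 minus the log2 ratio of Temohaya-MI26, and it could be formed for 5974 of the 6152 ORFs on the array.

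CECT10094 was isolated from flor wine in Spain and Temohaya-MI26 from an agave fermentation in Mexico. The study chose them because they differ in how well they tolerate ethanol, and the gap at 1 h without ethanol is the strain difference in the absence of added ethanol. Cultures were grown at 28 °C from a single colony of each strain, and the other 6 samples were taken at 1 h with 10% (v/v) ethanol and at a late stage without and with ethanol. The late unstressed samples came at 10 h for either strain, and the late stressed ones at 28 h for CECT10094 but 40 h for Temohaya-MI26. Complementary DNA labelled with Cy5 was hybridised to spotted arrays against a Cy3-labelled pool of RNA from all samples, so a log2 ratio of 0 means the level of the pool. Ratios compare a gene between strains and not one gene with another.

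In yeast a fresh supply of glucose favours ribosome assembly and fermentative glycolysis, and it represses genes for stress protection, storage sugars and the use of poor carbon sources. Iron is taken up at the plasma membrane by a complex of a copper oxidase and a permease, while nitrogen catabolism, vitamin synthesis and cell wall assembly are tuned to what the medium supplies.

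Between 5612 and 6115 ORFs had a value in each of the 8 columns. The columns of CECT10094 and Temohaya-MI26 at 1 h without ethanol correlated with each other at r = 0.79 across 5974 ORFs, which share the pool and are not independent replicates. The lowest correlation among all columns was -0.36, between CECT10094 at 1 h without ethanol and Temohaya-MI26 at 1 h with ethanol. The direction of the ratios was kept because the study's methods give the dye of the samples and of the pool. Each strain has 1 column per condition, already the median of 3 slides, so a gap has no replicate check and no p-value is given for it. Slides and cultures are not separate in the values, and strain and any difference between the 2 cultures cannot be told apart. No test of the gap stands behind the counts that follow.

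The median gap was -0.12 (log2), and all gaps are given relative to it. The gaps were narrow for most of the genome. Their SD was 0.49, the middle of the distribution ran between -0.26 and 0.24 (quartiles), and 78.4% of ORFs lay within 0.5 of the median. Limits were set at 1.96 SD from the mean. The study used this threshold for ethanol against no ethanol, with a false discovery rate that was not applied here. The limits fell at 0.94 and -0.97, which are gaps of 1.91-fold and 1.95-fold. Above the upper limit lay 135 ORFs (2.26%), higher in CECT10094, and below the lower limit lay 171 ORFs (2.86%), lower in CECT10094, together 306 (5.12%). These limits mark the ends of the distribution and would mark some ORFs in any pair of columns. Counts of gene list members past a limit are to be read against 2.26% above and 2.86% below.

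**Figure D1:**
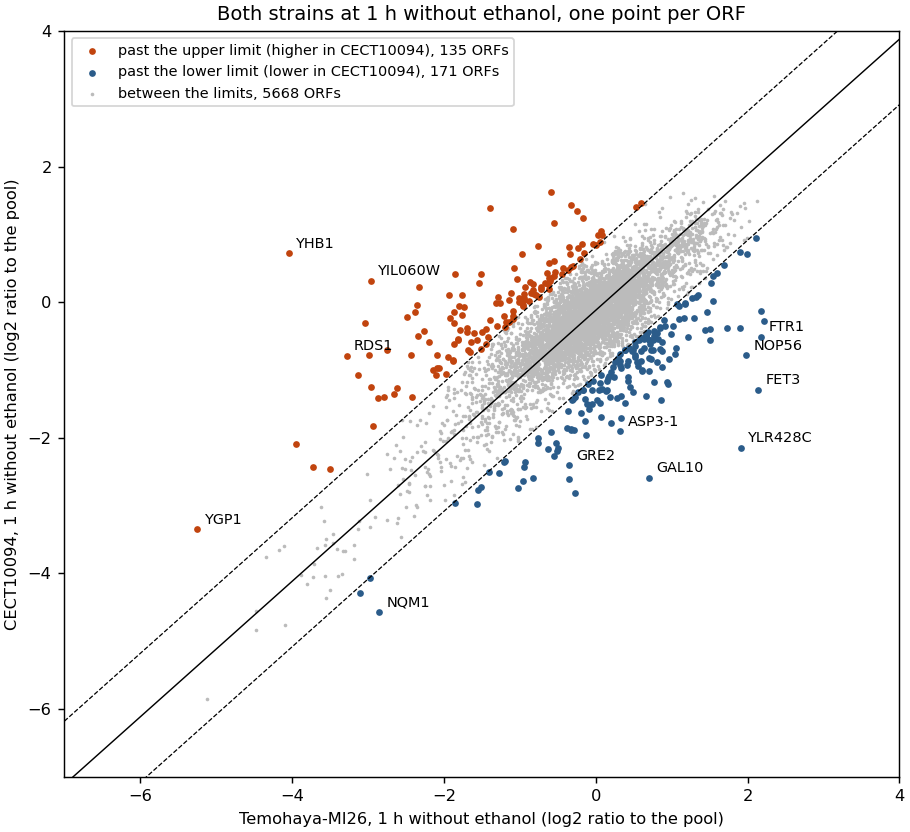
Log2 ratio to the pool in CECT10094 (vertical axis) against Temohaya-MI26 (horizontal axis) at 1 h without ethanol, for 5974 ORFs. The solid line is the median gap and the dashed lines are the limits. YHB1 stands alone on the upper left, and FET3, GAL10 and YLR428C stand out on the lower right.

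The ORF with the largest gap was YHB1, which encodes flavohemoglobin, the enzyme that detoxifies nitric oxide. Its log2 ratio was 0.73 in CECT10094 and -4.04 in Temohaya-MI26, a centred gap of 4.88 or 29.5-fold. In the other columns YHB1 lay at -0.12 (1 h with ethanol), -1.10 (late without ethanol) and 0.63 (late with ethanol) in CECT10094, against -3.20, -3.33 and -0.27 in Temohaya-MI26. Temohaya-MI26 reached the range of CECT10094 only late with ethanol, where the gap was 1.12. MIC26, the next ORF along the chromosome and a part of the mitochondrial cristae complex, also stood above the limit, at 0.42 in CECT10094 and -1.52 in Temohaya-MI26 (gap 2.05).

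YIL060W, an ORF without a gene name that overlaps YIL059C, followed with 0.32 in CECT10094 and -2.96 in Temohaya-MI26 (gap 3.40). YHR145C, also without a gene name, had 0.23 in CECT10094 and -2.33 in Temohaya-MI26, a gap of 2.68. Both kept the same side in every other pair of columns. RDS1, a zinc cluster regulator tied to drug resistance, lay at -0.78 in CECT10094 and -3.28 in Temohaya-MI26 (gap 2.61), and its neighbour AAD3, an aryl-alcohol dehydrogenase, lay at 0.08 in CECT10094 and -1.29 in Temohaya-MI26.

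Several other genes above the limit have well-known roles. CYR1, the adenylate cyclase of the cAMP pathway, lay below the pool in both strains, at -2.08 in CECT10094 and -3.95 in Temohaya-MI26 (gap 1.99). YAP3, a bZIP transcription factor, had -0.06 in CECT10094 and -1.80 in Temohaya-MI26 (gap 1.85). AFB1, a secreted barrier to the mating pheromone a-factor, had 0.28 in CECT10094 and -1.54 in Temohaya-MI26 (gap 1.94). IRC7, a cysteine beta-lyase that releases thiols, had 1.17 in CECT10094 and -0.56 in Temohaya-MI26 (gap 1.84).

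At the other end stood YLR428C, an ORF without a gene name, at -2.15 in CECT10094 and 1.91 in Temohaya-MI26 (gap -3.94). Among named genes the lowest gap was that of FET3, the copper oxidase of high-affinity iron uptake. FET3 lay at -1.29 in CECT10094 and 2.14 in Temohaya-MI26 (gap -3.31, 9.95-fold). FTR1, the permease that works with FET3 as one complex, lay at -0.51 in CECT10094 and 2.18 in Temohaya-MI26 (gap -2.57, 5.93-fold). Both stood above the pool in Temohaya-MI26 at 1 h without ethanol and below it in CECT10094. In the other Temohaya-MI26 columns FET3 lay between -0.51 and 0.16 and FTR1 between -0.34 and 0.77, so the high value was seen in a single column for each gene.

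**Figure D2:**
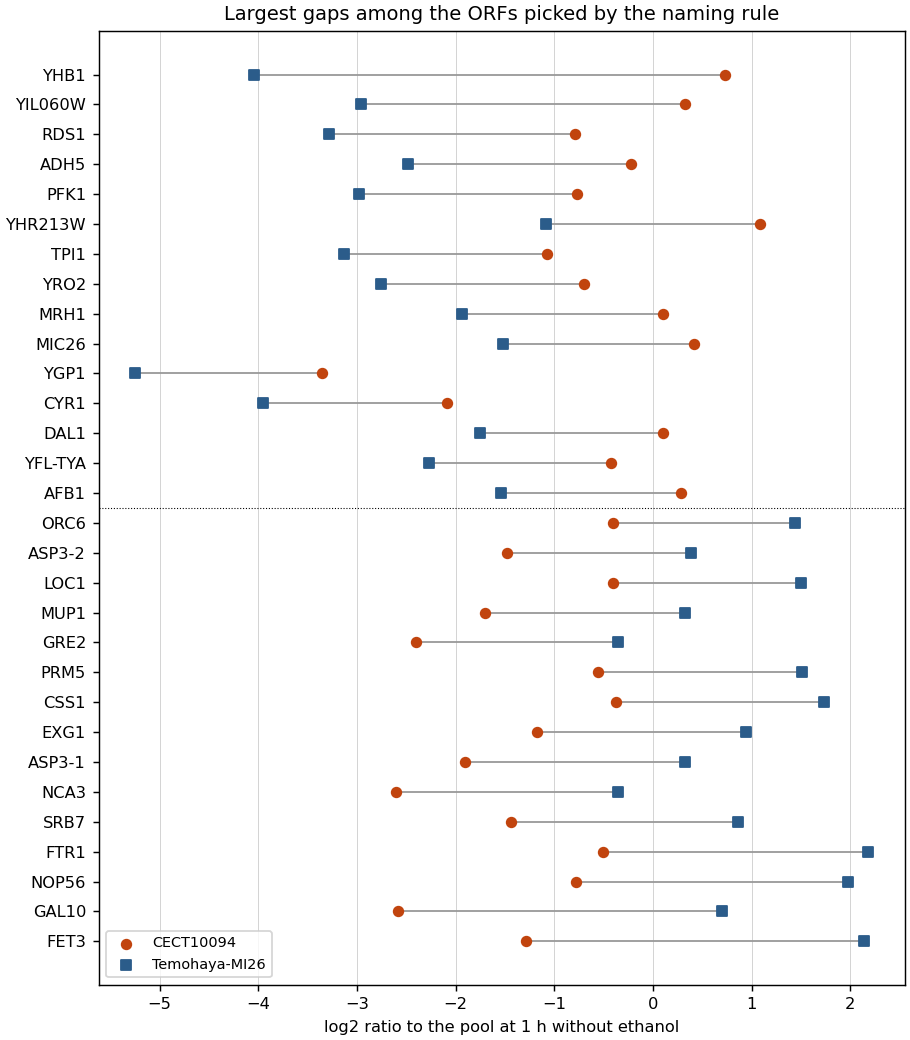
Log2 ratio to the pool at 1 h without ethanol (horizontal axis) in CECT10094 (circles) and Temohaya-MI26 (squares), for the 15 largest gaps in each direction among the ORFs that the naming rule picked. Grey bars join the strains and the dotted line divides the ORFs higher in CECT10094 from those lower in it. In the upper set the Temohaya-MI26 value lies below the pool for all 15 ORFs, as for YHB1 at -4.04, and in the lower set FTR1 (2.18), FET3 (2.14) and NOP56 (1.98) are highest in Temohaya-MI26.

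The iron list as a whole leaned the same way. Its 31 measured members had a median of -0.24 against 0 for all ORFs, and a mean of -0.45 relative to the mean of all ORFs. Below the lower limit lay 7 (22.6%, against 2.86% of all ORFs), and 0 lay above the upper limit. Besides FET3 and FTR1 these were the ferric reductases FRE6 (-1.20) and FRE1 (-1.02, or -0.83 and inside the limit after a lowess correction for the mean ratio), the heme oxygenase HMX1 (-1.01), the wall mannoprotein FIT2 (-1.01) and the siderophore transporter ARN1 (-0.97). The regulators AFT1 (-0.14) and AFT2 (-0.39), the copper chaperone ATX1 (-0.11) and the copper pump CCC2 (0.05) lay between the limits. In the other pairs of columns the median of the list was 0.10 at 1 h with ethanol, 0.001 late without ethanol and -0.20 late with ethanol.

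Genes of glycolysis and fermentation gave some of the largest gaps in the opposite direction. Of 22 genes on the array, 15 had a gap, with a median of 0.41 and a mean of 0.87. Above the upper limit lay 6 (40%, against 2.26% of all ORFs), and 1 lay below the lower limit (6.67%, against 2.86%). Another 8 genes of the pathway (FBA1, TDH1, TDH3, PGK1, ENO1, CDC19, PDC1 and ADH2) matched no entry used here, so the counts leave out much of the pathway. PFK1, a subunit of phosphofructokinase, lay at -0.77 in CECT10094 and -2.98 in Temohaya-MI26 (gap 2.33). TPI1, triose phosphate isomerase, lay at -1.07 in CECT10094 and -3.13 in Temohaya-MI26 (gap 2.18). PGI1, phosphoglucose isomerase, lay at 0.72 in CECT10094 and -0.97 in Temohaya-MI26 (gap 1.81). Enolase ENO2 had a gap of 1.52, and the alcohol dehydrogenases ADH5 and ADH3, the mitochondrial form, had gaps of 2.38 and 1.82. PFK2, the partner subunit of PFK1, did not share its gap and lay at -0.10 in CECT10094 and -0.35 in Temohaya-MI26 (gap 0.37). The member below the limit was PYK2, the pyruvate kinase that glucose represses, at -2.08 in CECT10094 and -0.77 in Temohaya-MI26 (gap -1.20). The list median was 0.92 at 1 h with ethanol, 0.39 late without ethanol and -0.50 late with ethanol.

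The 27 measured genes of pyruvate oxidation and the tricarboxylic acid and glyoxylate cycles held 2 ORFs past each limit and had a median of -0.08. The share past each limit was 7.41%, against 2.26% above and 2.86% below over all ORFs. PDA1 and PDB1, which form the first enzyme of pyruvate dehydrogenase, lay above the limit with gaps of 1.08 and 1.11. IDH1 and IDH2, the subunits of the NAD-dependent isocitrate dehydrogenase, lay below it with gaps of -0.98 and -1.57, although IDH1 lay inside the limit after quantile normalization and after centring on each arm. ACO1 (-0.89), CIT2 (-0.91) and FUM1 (-0.85) were close to the lower limit without passing it.

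Among the genes for the use of acetate and other poor carbon sources, 0 of 18 measured lay above the upper limit and 4 lay below the lower limit. The share below was 22.2%, against 2.86% of all ORFs. The gap was negative for 12 and positive for 6, with a median of -0.25. ALD6, the cytosolic acetaldehyde dehydrogenase, lay at -0.94 in CECT10094 and 0.56 in Temohaya-MI26 (gap -1.38). FBP1, fructose-1,6-bisphosphatase, lay at -1.85 in CECT10094 and -0.37 in Temohaya-MI26 (gap -1.36). The lactate permease JEN1 (-1.09) and the mitochondrial aldehyde dehydrogenase ALD4 (-1.07, or -0.84 and inside the limit after the lowess correction) were the others, while PCK1 (-0.28) and ACS1 (-0.48) lay between the limits. Among the 24 hexose transporters and glucose sensors the high-affinity transporters HXT2 (-1.58) and HXT7 (-0.98) lay below the limit, HXT7 by a margin that quantile normalization and the lowess correction each removed. They made up 8.33% of the list, against 2.86% of all ORFs.

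A single gene of galactose use stood out. GAL10, the epimerase and mutarotase of the pathway, lay at -2.59 in CECT10094 and 0.70 in Temohaya-MI26 (gap -3.17, 8.98-fold). GAL1 (-0.36) and GAL7 (-0.15), its neighbours in the gene cluster, and the permease GAL2 (0.57) lay between the limits. With ethanol the gap of GAL10 was 0.19 at 1 h and 0.27 late, and late without ethanol Temohaya-MI26 had no value.

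Ribosome assembly factors leaned lower in CECT10094. Of 99 measured genes, 10 (10.1%, against 2.86% of all ORFs) lay below the lower limit and 0 above the upper limit. The gap was negative for 77, and the median was -0.20. That median was -0.09 after quantile normalization, and the mean over members was -0.31. NOP56, a core protein of the particles that methylate ribosomal RNA, had the largest gap of the list, with -0.78 in CECT10094 and 1.98 in Temohaya-MI26 (gap -2.64). The ORF YLR198C next to it had a gap of -2.38, and whether that is a measurement separate from NOP56 was not tested. LOC1 lay at -0.40 in CECT10094 and 1.50 in Temohaya-MI26 (gap -1.79), and NOP7 at -0.14 in CECT10094 and 1.46 in Temohaya-MI26 (gap -1.48). RRP15 (-1.41), KRR1 (-1.40), BUD21 (-1.35), RRP14 (-1.28), ENP2 (-1.23), RRP7 (-1.05) and EBP2 (-1.02) completed the set. For the list as a whole the median ratio was 0.49 in CECT10094 and 0.94 in Temohaya-MI26, both above the pool.

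Among the structural genes of the cytosolic ribosome, 0 of 106 measured lay above the upper limit. Below the lower limit lay 2 (1.89%, against 2.86% of all ORFs), RPL9B (-1.15) and RPL23A (-1.05). Both lay inside the limits after the lowess correction, and the list median of -0.13 was 0.03 after quantile normalization. The difference between this list and the assembly factors was not tested. Near-identical pairs of ribosomal genes cannot be separated on spotted products.

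Mitochondrial ribosomal proteins showed a small gap shared by nearly the whole list. Of 70 measured genes, 64 had a positive gap, and the median was 0.38. Above the upper limit lay 5 (7.14%, against 2.26% of all ORFs), and 0 lay below the lower limit. The members past the limit were MRP49 (1.24), MRPS9 (1.23), MRPS12 (1.12), MRPS5 (1.04) and MRPL13 (0.94). MRP49 lay at -0.26 in CECT10094 and -1.39 in Temohaya-MI26. MRPL20 had the lowest gap of the list, -0.26. The median ratio of the list was -0.19 in CECT10094 and -0.52 in Temohaya-MI26. In the other pairs the list median was 0.02, 0.03 and -0.09, so the shift was seen at 1 h without ethanol and not elsewhere, a difference that was not tested. Of the 40 measured nuclear genes of the respiratory chain and ATP synthase, 0 lay above and 2 below the limits (5% below, against 2.86% of all ORFs). Their median was -0.09.

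Biotin genes formed the list with the highest median, 0.56, and all 6 had a positive gap. BIO2, biotin synthase, lay at 0.41 in CECT10094 and -0.44 in Temohaya-MI26 (gap 0.97), and BIO4, which makes its substrate dethiobiotin, lay at 0.52 in CECT10094 and -0.33 in Temohaya-MI26 (gap 0.96). Both were only slightly past the limit (33.3% of the list, against 2.26% of all ORFs). The others were the biotin ligase BPL1 (0.74), the earlier enzyme BIO3 (0.38), the transporter BIO5 (0.31) and the biotin permease VHT1 (0.25).

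**Figure D3:**
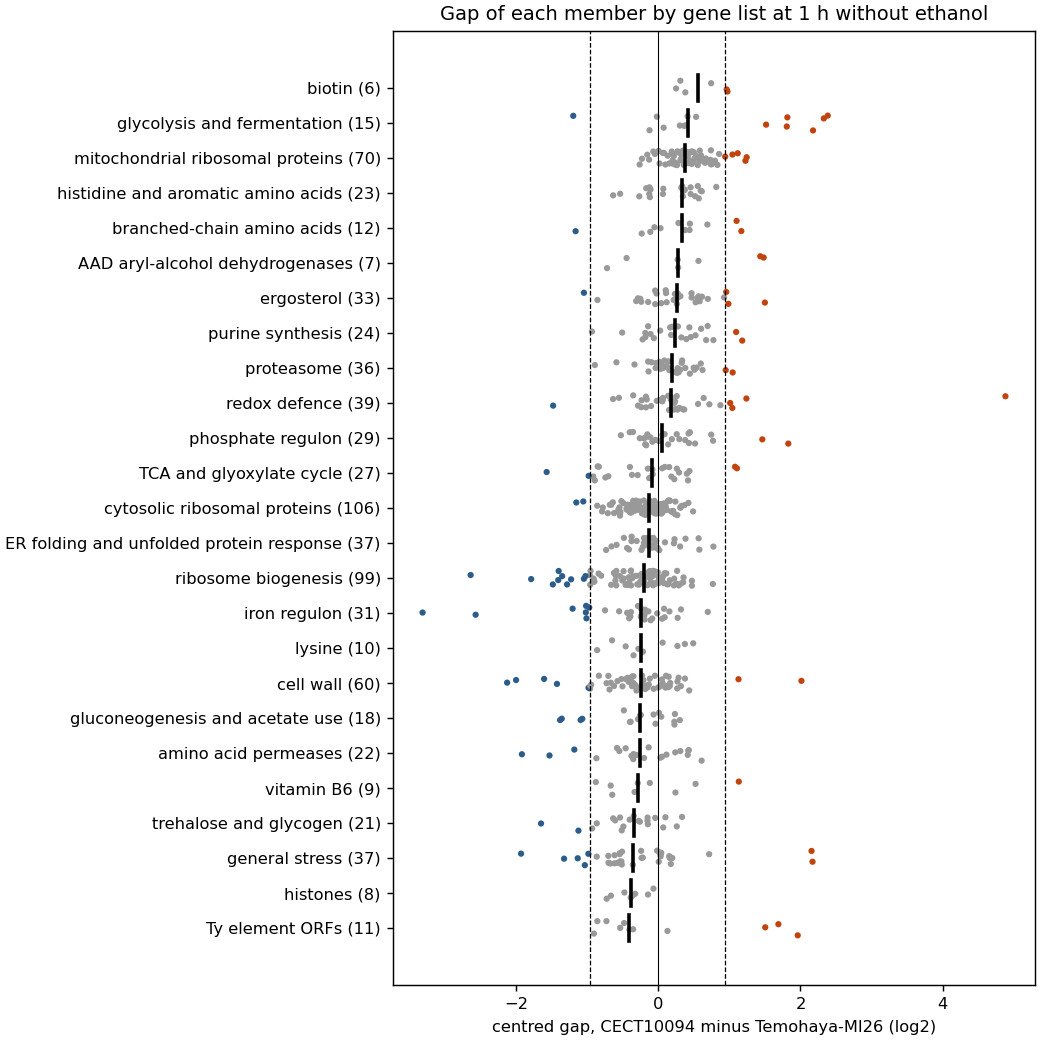
Centred gap (log2, horizontal axis) of each measured member of 25 gene lists, with the number of measured members in brackets and a black bar at the list median. Orange points lie past the upper limit, blue points past the lower limit, grey points between them, and dashed lines are the limits. Mitochondrial ribosomal proteins sit as a block around a median of 0.38, while the iron list has a median of -0.24 and a tail of 7 genes below the limit.

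Amino acid gene lists did not all lean one way. The median was 0.34 for histidine and aromatic amino acids and 0.33 for branched-chain ones. It was -0.25 for lysine, -0.15 for arginine, -0.08 for sulfate and methionine, and -0.25 for the permeases. BAT1, the mitochondrial branched-chain aminotransferase, lay at 1.05 in CECT10094 and 0.07 in Temohaya-MI26 (gap 1.10), whereas BAT2, its cytosolic counterpart, lay at -1.12 in CECT10094 and 0.16 in Temohaya-MI26 (gap -1.16). LEU1, an enzyme of leucine synthesis, had a gap of 1.17. In the arginine list CPA1, a subunit of carbamoyl phosphate synthetase, had a gap of 1.42 and the ornithine carbamoyltransferase ARG3 that uses its product had a gap of -1.69. The permeases held 0 genes above and 3 below the limits among 22 measured (13.6% below, against 2.86% of all ORFs). These were MUP1 for methionine, at -1.71 in CECT10094 and 0.33 in Temohaya-MI26 (gap -1.92), PUT4 for proline (-1.53) and PTR2 for small peptides (-1.18).

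The genes for asparaginase II, a cell wall enzyme that splits asparagine, were low in CECT10094 in every pair of columns. ASP3-1 lay at -1.90 (1 h) and -0.30 (late) without ethanol and at -0.43 (1 h) and -0.81 (late) with ethanol in CECT10094, against 0.32, 1.69, 0.78 and 1.37 in Temohaya-MI26. The strains did not overlap. The gap at 1 h without ethanol was -2.11 for ASP3-1, -1.75 for ASP3-2, -1.70 for ASP3-3 and -1.14 for ASP3-4. These near-identical copies lie together on chromosome XII and count as 1 measurement. How many copies each strain carries was not measured. ASP3-2, ASP3-3, YLR159W, ASP3-4 and YLR161W formed a run of 5 neighbouring ORFs below the limit, the longest found. ASP1, the cytosolic asparaginase, had a gap of -0.02.

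Other genes of nitrogen catabolism did not share this gap. The list of 30 measured genes had a median of 0.08, and its 4 members below the limit were the ASP3 copies. Of the list, 6.67% lay above and 13.3% below the limits, against 2.26% and 2.86% of all ORFs. Above the limit were DAL1, the allantoinase, at 0.10 in CECT10094 and -1.76 in Temohaya-MI26 (gap 1.98), and GLN1, glutamine synthetase (1.02).

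Stress genes leaned lower in CECT10094, with exceptions among the largest. The general stress list had a median of -0.36 over 37 measured genes, of which 2 lay above and 5 below the limits. The shares were 5.41% above and 13.5% below, against 2.26% and 2.86% of all ORFs. GRE2, a methylglyoxal reductase, lay at -2.40 in CECT10094 and -0.36 in Temohaya-MI26 (gap -1.93), and MSN4, a main activator of the stress response, lay at -1.63 in CECT10094 and -0.19 in Temohaya-MI26 (gap -1.32). HSP30 (-1.13), SDP1 (-1.03) and RTC3 (-0.98) were the other members below the limit. The exceptions were YRO2 and MRH1, membrane proteins related to HSP30. YRO2 lay at -0.70 in CECT10094 and -2.76 in Temohaya-MI26 (gap 2.17), and MRH1 at 0.10 in CECT10094 and -1.93 in Temohaya-MI26 (gap 2.16).

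Storage sugar genes leaned the same way at 1 h without ethanol. Among 21 measured genes of trehalose and glycogen, 17 had a negative gap, with a median of -0.35. Above the upper limit lay 0, and 2 lay below the lower limit (9.52%, against 2.86% of all ORFs). In the other pairs the list median was -0.11 at 1 h with ethanol, -0.16 late without ethanol and -0.05 late with ethanol. TPS2, the trehalose-6-phosphate phosphatase, lay at -2.60 in CECT10094 and -0.83 in Temohaya-MI26 (gap -1.65), and the glycogen synthase GSY1 had a gap of -1.12. TSL1 (-0.93) and TPS1 (-0.54), from the same trehalose complex, lay between the limits. The median ratio of the list was -1.83 in CECT10094 and -0.86 in Temohaya-MI26, below the pool in both strains.

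Protein folding in the endoplasmic reticulum, the subject of the study, held 0 genes past a limit among 37 measured, against 5.12% of all ORFs. The gap was positive for 9 and negative for 28, with a median of -0.13. HAC1, the transcription factor of the unfolded protein response, lay at -0.20 in CECT10094 and 0.01 in Temohaya-MI26 (gap -0.09). Its activating sensor IRE1 had a gap of -0.30, and the chaperone KAR2 one of -0.13. ERO1 (-0.37), MPD1 (-0.48), PDI1 (0.31) and LHS1 (0.09), which fold proteins or form disulfide bonds, and INO1 (0.22), for inositol synthesis, also lay between the limits. In the other pairs the median of the same list was 0.36 at 1 h with ethanol, -0.11 late without ethanol and 0.24 late with ethanol. The ratios measure transcripts and not the activity of the pathway.

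Among cytosolic chaperones HSP82 passed the upper limit, at -1.05 in CECT10094 and -1.97 in Temohaya-MI26 (gap 1.04), a position it lost after quantile normalization, and its paralogue HSC82 had a gap of 0.47. HSP82 was 2.78% of the chaperone list, near the 2.26% of all ORFs above the limit. In redox defence, besides YHB1, the peroxidases HYR1 (1.24), CCP1 (1.04) and GPX2 (1.01) lay above the limit and the peroxiredoxin TSA2 (-1.48) below it. The shares of the redox list were 10.3% above and 2.56% below, against 2.26% and 2.86% of all ORFs. The proteasome list had a median of 0.19, with RPN5 (1.05) and SCL1 (0.95) above the limit, both of which lost that position after quantile normalization, SCL1 also after the lowess correction. They made up 5.56% of the proteasome list.

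Membrane and wall genes were split. In the ergosterol list of 33 measured genes, ERG28 (1.50), ERG2 (0.99) and CYB5 (0.96) lay above the limit and the sterol uptake regulator SUT1 (-1.05) below it, with a median of 0.26. The shares were 9.09% above and 3.03% below, against 2.26% and 2.86% of all ORFs. OLE1, the fatty acid desaturase, lay at -2.19 in CECT10094 and -0.51 in Temohaya-MI26 (gap -1.56). In the cell wall list of 60, YGP1, a secreted glycoprotein, lay at -3.35 in CECT10094 and -5.25 in Temohaya-MI26 (gap 2.01) and GAS4 had a gap of 1.13. Below the limit stood NCA3 (-2.13), the exoglucanase EXG1 (-1.18 in CECT10094 and 0.94 in Temohaya-MI26), PRY1 (-1.61), HPF1 (-1.42) and PRY2 (-0.98), and the median was -0.25. Of the cell wall list, 3.33% lay above and 8.33% below the limits. The 8 measured histone genes all had negative gaps, between -0.73 (HHT2) and -0.07 (HHT1), and none passed a limit.

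The acid phosphatase PHO5 lay at -1.25 in CECT10094 and -2.96 in Temohaya-MI26 (gap 1.83), and its tandem neighbour PHO3, which thiamine represses, had a gap of 1.43. The phosphate transporter PHO84 had a gap of 1.46, yet the phosphate list of 29 measured genes had a median of 0.06, and the activator PHO4 (-0.04) stood at the centre of the distribution.

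Repeated and subtelomeric sequences appeared at both ends. The flocculin FLO1 lay at -0.58 in CECT10094 and 0.88 in Temohaya-MI26 (gap -1.34), while the FLO1-like ORFs YHR213W (2.29) and YAR062W (1.71) lay above the limit and FLO5 (0.06), FLO9 (0.40) and FLO11 (-0.47) between the limits. The related ORFs YAR066W and YHR214W had gaps of -2.16 and -2.18. Ty element ORFs fell into 2 sets. YFL-TYA (1.96), YFL-TYB (1.69) and YCL020W (1.50) lay above the limit, and the other 8 lay between -0.90 and 0.13, which gave the list of 11 a median of -0.40. The share above was 27.3%, against 2.26% of all ORFs, but YFL-TYA and YFL-TYB were added to those in the study's text. Copies of such sequences cross-hybridise, and their number in each strain was not measured.

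Large gaps were spread over the genome and were more frequent toward chromosome ends. Arm medians lay between -0.11 and 0.18. Of the outermost 10 ORFs of each arm, 33 of 320 passed a limit (21 above, 12 below, 10.3%), against 4.83% of the other 5654. Neighbouring ORFs past the same limit formed 24 adjacent pairs. Among them were BDH1 and BDH2, the butanediol dehydrogenases (1.41 and 1.16), PHO3 and PHO5, YHB1 and MIC26, and PYK2 and PUT4. Others joined a named gene to an unnamed ORF, as for NOP56 and YLR198C, GRE2 and YOL150C, IDH2 and YOR135C, and RRP15 and YPR142C. Some lay within the ASP3 repeat. The 24 are therefore not all separate measurements, and no background count of such pairs was taken. PRM5, RHO3 and RPI1 on chromosome IX formed a run of 3 below the limit, with gaps of -1.95, -1.05 and -1.72. Of the 306 ORFs past a limit, 12 overlap another ORF of the reference annotation, against 148 of all 5974 ORFs with a gap. Overlap with ORFs absent from that annotation was not counted. Of the 306, 31 (10.1%) had no match there, as had 448 (7.50%) of the 5974, so 12 and 148 are both lower bounds.

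Large gaps were most frequent where the ratios were low. When the ORFs were divided into 4 groups of nearly equal size by mean log2 ratio, 75 ORFs lay above and 63 below the limits in the lowest group, with an SD of 0.61, whereas in the highest group 19 lay above and 37 below, with an SD of 0.44. A low ratio is a level below the pool and need not be a low signal. The part of low signal in these gaps was not tested, since the deposited values hold ratios alone.

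The remaining 3 pairs of columns give the same strain comparison under other conditions. Across ORFs the gap at 1 h without ethanol correlated at r = 0.23 with the gap at 1 h with ethanol (5814 ORFs), at 0.16 with the gap late without ethanol (5542) and at 0.15 with the gap late with ethanol (5726). These are descriptions across genes that share the pool and the array. Of the ORFs above the limit, 28 of 122 (23.0%) passed the upper limit of the pair at 1 h with ethanol, which 2.53% of all ORFs passed. The share was 11 of 109 (10.1%) late without ethanol (2.95% of all ORFs) and 16 of 125 (12.8%) late with ethanol (2.32%). Of the ORFs below the limit, 21 of 161 (13.0%) passed the lower limit at 1 h with ethanol (2.66% of all ORFs), 20 of 136 (14.7%) late without ethanol (2.47%) and 31 of 151 (20.5%) late with ethanol (2.96%). Most of the large gaps were therefore not large in any other pair. With all gaps present, 64 of 101 ORFs above and 82 of 131 below passed the same limit nowhere else.

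Passing a limit fixes the side of the median in this pair, so only the other 3 pairs bear on the side. Of the 101 ORFs above the limit, 27 (26.7%) stood above the median gap in all 3 other pairs, against 418 of the 2683 ORFs above the median at 1 h without ethanol (15.6%). Of the 131 below the limit, 47 (35.9%) stood below it in all 3, against 403 of 2676 (15.1%). These shares are descriptions and were not tested.

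**Figure D4:**
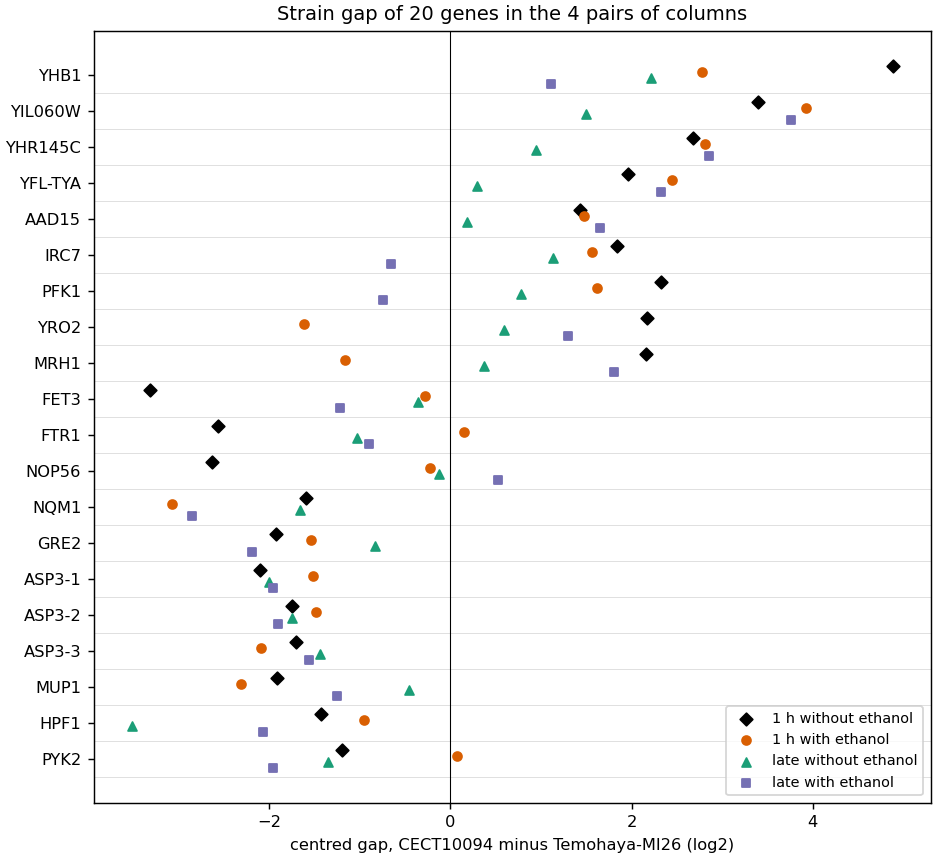
Centred gap (log2, horizontal axis) of 20 genes in the 4 pairs of columns, 1 point per pair. The genes were chosen from their values to show the patterns in the text. YIL060W, NQM1 and the ASP3 genes keep their side in every pair, whereas FET3, FTR1 and NOP56 are farthest from 0 at 1 h without ethanol and YRO2 and MRH1 lie on the other side of 0 at 1 h with ethanol.

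A limma fit to the 3 other pairs, which did not use the columns at 1 h without ethanol, asked which ORFs had a mean gap away from 0 over those conditions. Of 5398 ORFs tested, 1 was higher in CECT10094 (0.0185%) and 5 were lower (0.0926%) at an adjusted p under 0.05. Before adjustment, 90 were higher and 191 lower at p under 0.05. The higher one was YIL060W, with a mean gap of 3.06 (SE 0.44, limma adjusted p = 0.0435). The lower ones were HSP12 (-3.21), NQM1 (-2.53), RTN2 (-2.18), FMP45 (-1.92) and ASP3-1 (-1.83), each at a limma adjusted p of 0.0435. Conditions stand in for replicates in this fit, so its error is the spread between conditions and not between cultures. Without the late pair with ethanol no ORF was called, against 136 higher and 169 lower before adjustment, and without the pair at 1 h with ethanol 12 were higher and 37 lower.

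YIL060W, ASP3-1 and NQM1 were past the same side's limit at 1 h without ethanol as well. NQM1, a transaldolase related to the pentose phosphate enzyme, lay at -4.56 in CECT10094 and -2.85 in Temohaya-MI26 (gap -1.60) and had gaps of -3.07, -1.67 and -2.86 in the other pairs. HSP12, a small membrane-protecting stress protein, lay at -5.85 in CECT10094 and -5.12 in Temohaya-MI26, a gap of -0.61 inside the limits. For RTN2, a reticulon of the endoplasmic reticulum, the gap at 1 h without ethanol was -0.02 and for FMP45, a membrane protein of the cell cortex, it was -0.55. YHB1 had a mean gap of 2.04 over the other pairs (limma adjusted p = 0.0757).

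Some ORFs were measured in 1 strain only. At 1 h without ethanol, 81 ORFs had a value in CECT10094 alone and 42 in Temohaya-MI26 alone. Over all columns, 5 ORFs had a value in each of the 4 CECT10094 columns and in none of the Temohaya-MI26 columns, namely YAL065C, ICS2, ECO1, YIL174W and YOR314W, and 0 showed the reverse. ECO1, the acetyltransferase that establishes sister chromatid cohesion, had a log2 ratio of 0.14 in CECT10094 and ICS2 one of 0.97. A value can be missing because a spot was removed as flawed or was seen in too few slides, and the reason is not in the files.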

How the data were processed

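As deposited by the authors, each value is a log2 ratio in which the sample (Cy5) is divided by the pool (Cy3). The authors removed flawed spots, subtracted a global background, normalized by ratio and combined 3 slides per condition by their median, keeping spots with at least 2 replicates. The error of a single value is therefore unknown, and precision is limited by how many arrays were run. The strain labelled PE35M was taken as CECT10094, as the methods state. A second deposited table holds the authors' log2 differences between 10 and 0% ethanol and was not used. Of 6152 ORFs, 5653 matched the reference annotation by locus tag and 5128 had a gene name.

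The gap per ORF was centred on its median, and limits were set at the mean plus and minus 1.96 SD over all ORFs. For 56 gene lists the measured members were counted and their median taken, beside all ORFs. The centred gaps of the other 3 pairs of columns were modelled with limma 3.58.1 (R 4.3.3), with Benjamini-Hochberg adjustment (prior df 7.79, prior SD 0.50). Tested on simulated gaps of 5398 ORFs, that fit called 14.9% of 67 ORFs moved by 1 and 92.5% of 67 moved by 2. Another 66 were moved by 3, and of the 5198 unmoved ORFs 0.0577% were called. The adjusted p depends on how many ORFs are moved, so these shares are not the power of the fit in the data. Python 3.11.15 with pandas 2.3.3 was used for the rest.

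Named genes were the 15 largest and 15 smallest gaps among named ORFs, up to 4 members per list past a limit, limma calls that also passed the limit, ORFs of 1 strain, and 8 main genes of the unfolded protein response. Any other gene is named to complete a count, or beside a partner, and was chosen after its values were seen. The members, lists and tests were chosen with earlier results of these data known. The Ty list holds the ORFs that the study's text names as raised late by ethanol in CECT10094, with YFL-TYA and YFL-TYB added. The study picked its ORFs from the same series. Alternatives changed the centre and spread of the limits, the normalization, the centring and the ORFs used. Promoter motifs were planned and are not analysed here.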

Additional observations from a re-analysis of the deposited data

Results flagged for a closer look

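The gaps of 2 genes passed opposite limits at 1 h without and with ethanol. FLO1, a flocculin, had a gap of -1.34 without ethanol and 1.72 with ethanol. YRO2, a stress-induced membrane protein, had a gap of 2.17 without ethanol and -1.62 with ethanol. With 1 column per strain and condition, the difference between the gaps was not tested.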

How the results depend on the processing

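Limits from the median and scaled MAD gave 248 ORFs above and 327 below, and limits at the 99% normal quantile gave 67 above and 81 below. A fixed gap of 1 (117 above, 159 below), quantile normalization, centring on each arm, a lowess correction for the mean ratio and the ORFs with all columns stayed within 1.5 times of the main counts. The share above ran between 42.4 and 45.3% over these settings. For the limma counts, all 4 pairs gave 2 higher and 4 lower, uncentred pairs 1 and 3, quantile normalization 0 and 0 (100 and 165 at unadjusted p under 0.05), and an adjusted p under 0.10 gave 4 and 10. Leaving out each pair in turn gave 0 to 12 higher and 0 to 37 lower. Of the 56 lists, 8 had a median at least 0.2 above and 11 at least 0.2 below the median of all ORFs. Means over members gave 13 above, and no centring gave 5 above and 22 below. The mean of the Ty list, 0.11, lay on the other side of its median of -0.40. Of 123 named genes with a gap, 6 lost their side of a limit after quantile normalization, 2 after centring on each arm and 8 after the lowess correction, and none turned direction. No paired analysis was possible because the labels number no replicates, so no replicate block could be set. The limma fit pairs the strains by condition only. Signal over background is not in the files, so dim spots could not be set apart.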
